A study of Mus musculus with 6 samples.

Results

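Trophoblast is the lineage that forms the outer wall of the blastocyst and later much of the placenta, and the expression of 9 of its transcription factors and markers was measured in mouse embryonic stem cells (mESCs) grown in serum or in 2i. The genes were chosen by name and are Tead4, Gata3, Gata2, Tfap2a, Elf5, Ets2, Hand1, Dlx3 and Plet1, which are 9 of the 53458 genes to which transcripts of the libraries were assigned. The study asked how culture medium shapes gene expression and chromatin in mESCs that differ in DNA methylation. The libraries used here are poly(A)-selected, stranded RNA-seq libraries of TKO mESCs, with 3 libraries of cells in serum (TKO-serum) and 3 of cells in 2i (TKO-2i). Both groups carry the same triple knockout, Dnmt1-/-, Dnmt3a-/- and Dnmt3b-/-, which removes the enzymes that place and maintain DNA methylation, and the line descends from male J1 mESCs and was kept without feeder cells. TKO-serum cells were in medium with 15% fetal calf serum (FCS) and the cytokine LIF at 500 U/ml. TKO-2i cells were in serum-free N2B27 medium with 1 µM PD0325901, which inhibits MEK, 3 µM CHIR99021, which inhibits GSK3, and 1000 U/ml LIF. The media therefore differ in serum, the use of N2B27, LIF dose and both inhibitors, and their parts in any difference cannot be told apart. Libraries of mESCs without the knockout were not analysed here, so whether a difference depends on the missing methyltransferases was not tested.

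Replicates 1, 2 and 3 of TKO-2i held 46228700, 44180642 and 43896549 estimated counts as deposited, and those of TKO-serum held 38274042, 51932739 and 44827609. At these depths 3 counts, taken as the floor, correspond to between 0.0578 and 0.0784 CPM, the counts of a gene scaled to a library of fixed size. The labels call the replicates biological replicates. Each pair within a group differed by more than counting noise (chi-square per gene of at least 4.69), so no pair was an identical copy. The counts are estimates with errors of their own, so this value cannot show whether a pair came from the same library. TKO-2i replicate 2 stood apart from its group, at 45 and 27.4 per gene against replicates 1 and 3, which differed by 7.08, and TKO-serum replicate 2 did so by less, at 16 and 11 where replicates 1 and 3 differed by 4.69. Without TKO-2i replicate 2, 12579 genes were called in place of 11368, and without TKO-serum replicate 2, 10314 were. In both fits the calls and directions of the 9 genes were those given below. All values below are given for replicates 1, 2 and 3 in that order.

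The cells carried the markers of mESCs in both media. The summed level of Pou5f1, Sox2, Nanog, Zfp42, Sall4 and Fgf4 was 3370, 2980 and 3180 CPM in TKO-2i against 3570, 3410 and 3440 CPM in TKO-serum, with Pou5f1 the most abundant at means of 1200 and 1360 CPM. Of these 6 genes Nanog was higher in TKO-2i, Sox2, Zfp42 and Sall4 were lower, and Pou5f1 and Fgf4 did not pass the test. Nanog, at a log2 fold change of 0.60, lies on chromosome 6, where tested genes with a mean of at least 1 CPM had a median of 0.50, and the part of the chromosome in its value was not tested. Pou5f1 passed as lower in 6 of the 15 alternatives (adjusted p of 0.00078 to 0.049), both with other ways of counting or scaling and without TKO-2i replicate 1, where the edgeR quasi-likelihood test with Benjamini-Hochberg adjustment gave an adjusted p of 0.027. Fgf4 passed as lower in 2, with at least 10 counts in every library and without TKO-2i replicate 2 (adjusted p of 0.045 and 0.048 in the same edgeR test). The targeted genes still gave reads, at 150, 154 and 155 CPM in TKO-2i against 129, 130 and 129 CPM in TKO-serum for Dnmt1, 7.14, 7.46 and 7.36 against 30.2, 29.4 and 30.7 CPM for Dnmt3a, and 19, 20.3 and 20.6 against 43.1, 42.2 and 43.9 CPM for Dnmt3b. Values per transcript do not show a deleted exon, so these levels do not check the knockout.

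In the early embryo, TEAD4 acts in outer cells with the coactivator YAP1 to switch on trophoblast genes such as Cdx2, and GATA3 works beside it. ELF5, EOMES and TFAP2C then keep trophoblast stem cells in their dividing state, while HAND1 and DLX3 act as those cells differentiate into giant cells and labyrinth. mESCs come from the inner cell mass and rarely enter this lineage, and methylation of the Elf5 promoter is one known part of that barrier.

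All 9 genes passed the edgeR filter on low counts and were tested. At an adjusted p under 0.05, Tead4, Tfap2a, Ets2 and Plet1 were higher in TKO-2i, Gata3, Hand1, Dlx3 and Gata2 were lower, and Elf5 did not pass. The 8 genes that passed of 9 stand beside 11368 of 18190 tested genes, or 62.5%, that passed in either direction, with 31.9% of all tested genes higher and 30.6% lower in TKO-2i. The CPM of the groups did not overlap for the same 8 genes, and for 67.5% of all tested genes. The 9 genes had a median log2 fold change of 0.19, against 0.012 over all tested genes, and the list as a whole was not tested. In bulk libraries such as these, fewer cells of a type and less RNA per cell cannot be told apart, and that holds for each gene below. An exact permutation test of 3 against 3 libraries cannot go below a p of 0.1, and the tests below are therefore those of the fit across all genes.

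**Figure D1:**
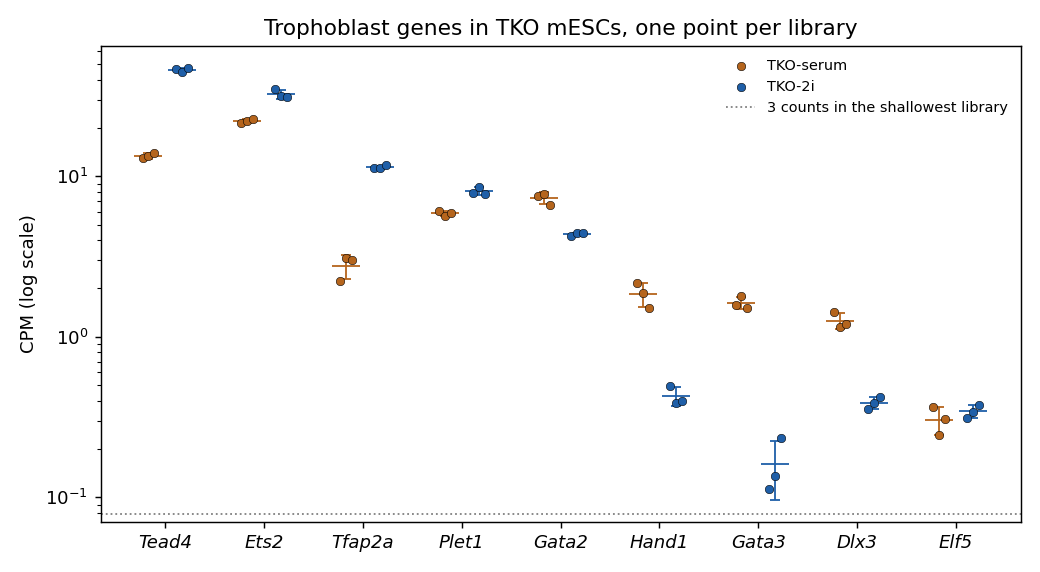
CPM on a log axis of the 9 trophoblast genes in each of the 3 TKO-serum and 3 TKO-2i libraries, where each point is a library, the wide horizontal line is the mean and the error bar is the SD. The dotted line marks 3 counts in the shallowest library, and Gata3 in TKO-2i, at 0.112 to 0.234 CPM, lies nearest to it.

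Tead4 (ENSMUSG00000030353; chr6:128224288-128300823, minus strand, GRCm38) encodes the TEA-domain factor that is needed to set up the trophectoderm. Its level was 46.4, 44.8 and 47.4 CPM in TKO-2i against 12.9, 13.3 and 14.0 CPM in TKO-serum. Every TKO-2i library lay far above every TKO-serum library, and the replicates of each medium lay close together. The means were 46.2 ± 1.29 and 13.4 ± 0.569 CPM (SD, n = 3 each), a 3.45-fold difference. Its log2 fold change was 1.79 (SE 0.06, 95% interval 1.66 to 1.92; adjusted p = 8.8e-08 by the edgeR quasi-likelihood test with Benjamini-Hochberg adjustment). Between 496 and 2080 estimated counts per library lie behind these values.

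Gata3 (ENSMUSG00000015619; chr2:9857078-9890034, minus strand) encodes a zinc finger factor of the trophectoderm that acts in parallel with TEAD4. Its level was 0.112, 0.136 and 0.234 CPM in TKO-2i, from 5, 6 and 10 counts, and 1.58, 1.79 and 1.52 CPM in TKO-serum, from 61, 95 and 70 counts. All TKO-2i libraries were low, not far above the floor, and all TKO-serum libraries were higher without overlap. The mean was 0.161 ± 0.065 CPM in TKO-2i against 1.63 ± 0.138 CPM in TKO-serum (SD, n = 3 each), so that TKO-serum was 10.1-fold higher. This fall had a log2 fold change of -3.33 (SE 0.26, 95% interval -3.93 to -2.73; adjusted p = 1e-05 by the edgeR quasi-likelihood test with Benjamini-Hochberg adjustment) and was the largest change among the 9 genes in that fit.

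Gata2 (ENSMUSG00000015053; chr6:88193891-88207032, plus strand), the related factor of trophoblast giant cells and blood progenitors, moved in the same direction by less. The CPM values were 4.22, 4.41 and 4.41 in TKO-2i and 7.52, 7.78 and 6.59 in TKO-serum. The lowest TKO-serum library was still above all TKO-2i libraries, and the TKO-2i libraries were almost equal. With means of 4.35 ± 0.111 and 7.30 ± 0.624 CPM (SD, n = 3 each), the log2 fold change was -0.75 (SE 0.09, 95% interval -0.96 to -0.53; adjusted p = 0.00017 by the edgeR quasi-likelihood test with Benjamini-Hochberg adjustment).

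Tead4 and Gata2 share chromosome 6, where the median log2 fold change of the 866 tested genes was 0.41 and 69.7% of them lay above 0. Among genes of that chromosome with a mean of at least 1 CPM the median was 0.50. The value of Tead4 lay above these medians and that of Gata2 had the opposite sign, and the part of the chromosome in either value was not tested.

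Tfap2a (ENSMUSG00000021359; chr13:40715302-40738376, minus strand) encodes AP-2 alpha, a factor of trophoblast, surface ectoderm and neural crest. Its level was 11.2, 11.2 and 11.7 CPM in TKO-2i against 2.23, 3.08 and 3.02 CPM in TKO-serum. TKO-serum replicate 1 was the lowest of all libraries, and the groups were well apart with or without it. The means of 11.4 ± 0.314 and 2.78 ± 0.477 CPM (SD, n = 3 each) differ 4.06-fold. In the edgeR fit Tfap2a had the largest rise among the 9 genes, with a log2 fold change of 2.02 (SE 0.12, 95% interval 1.75 to 2.30; adjusted p = 2.1e-06 by the edgeR quasi-likelihood test with Benjamini-Hochberg adjustment).

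Elf5 (ENSMUSG00000027186; chr2:103411688-103450989, plus strand) encodes the ETS-domain factor that sustains trophoblast stem cells. It was near the floor in both media, at 0.312, 0.341 and 0.375 CPM in TKO-2i against 0.363, 0.244 and 0.305 CPM in TKO-serum. These levels come from 14, 15 and 16 counts in TKO-2i and 14, 13 and 14 counts in TKO-serum. The libraries of the media were interleaved, and the highest and the lowest TKO-serum libraries enclosed all TKO-2i libraries but replicate 3. The means were 0.343 ± 0.0315 and 0.304 ± 0.0593 CPM (SD, n = 3 each). Its log2 fold change of 0.19 (SE 0.27, 95% interval -0.43 to 0.81) did not pass (adjusted p = 0.58 by the edgeR quasi-likelihood test with Benjamini-Hochberg adjustment).

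Ets2 (ENSMUSG00000022895; chr16:95702075-95721051, plus strand) encodes another ETS-domain factor, needed for trophoblast stem cell renewal and expressed in many other cells. The CPM values were 35.0, 31.4 and 31.2 in TKO-2i and 21.5, 22 and 22.7 in TKO-serum. All TKO-2i libraries were higher, with replicate 1 somewhat above the other TKO-2i libraries. The means of 32.5 ± 2.13 and 22.1 ± 0.593 CPM (SD, n = 3 each) gave a log2 fold change of 0.56 (SE 0.06, 95% interval 0.42 to 0.70; adjusted p = 8.5e-05 by the edgeR quasi-likelihood test with Benjamini-Hochberg adjustment).

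Hand1 (ENSMUSG00000037335; chr11:57828705-57832818, minus strand) encodes the basic helix-loop-helix factor that drives giant cell differentiation. Its level was 0.491, 0.386 and 0.399 CPM in TKO-2i, from 22, 17 and 17 counts, and 2.15, 1.88 and 1.52 CPM in TKO-serum, from 83, 100 and 70 counts. TKO-2i libraries were uniformly low, and TKO-serum libraries were higher and more spread. TKO-serum was 4.31-fold higher, with means of 0.425 ± 0.0571 CPM in TKO-2i against 1.85 ± 0.315 CPM in TKO-serum (SD, n = 3 each). The log2 fold change was -2.11 (SE 0.21, 95% interval -2.59 to -1.63; adjusted p = 4.1e-05 by the edgeR quasi-likelihood test with Benjamini-Hochberg adjustment).

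Dlx3 (ENSMUSG00000001510; chr11:95120119-95125296, plus strand) encodes a homeodomain factor required in the placental labyrinth. The CPM values were 0.357, 0.386 and 0.422 in TKO-2i, from 16, 17 and 18 counts, and 1.43, 1.15 and 1.20 in TKO-serum, from 55, 61 and 55 counts. Again each TKO-serum library was above each TKO-2i library. Dlx3 was 3.21-fold higher in TKO-serum, with means of 0.389 ± 0.0326 and 1.26 ± 0.149 CPM (SD, n = 3 each) and a log2 fold change of -1.68 (SE 0.20, 95% interval -2.14 to -1.22; adjusted p = 0.00011 by the edgeR quasi-likelihood test with Benjamini-Hochberg adjustment). Hand1 and Dlx3 both lie on chromosome 11, where the median log2 fold change of 1399 tested genes was 0.26 and 67.7% lay above 0, opposite in sign to both genes. The part of the chromosome in their values was not tested.

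In limma's fit of log2(TPM + 1), which compresses low values, the log2 fold changes of Gata3, Hand1 and Dlx3 were nearer to 0, at -0.79, -0.91 and -0.48. On log2(TPM + 0.1) they were -2.45, -1.92 and -1.39, and all of them passed the threshold on both scales. On log2(TPM + 1) Hand1 had the largest fall of the 9 genes. The largest rise on that scale was that of Tead4, at 1.6 against 1.49 for Tfap2a.

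Plet1 (ENSMUSG00000032068; chr9:50494525-50505482, plus strand), a marker of trophoblast progenitors that encodes a cell surface protein, was at 7.88, 8.59 and 7.71 CPM in TKO-2i against 6.04, 5.64 and 5.92 CPM in TKO-serum. The groups did not overlap, but the gap between the lowest TKO-2i and the highest TKO-serum library was small. The means were 8.06 ± 0.468 and 5.87 ± 0.206 CPM (SD, n = 3 each). Plet1 had the smallest change of the 8 genes that passed, with a log2 fold change of 0.46 (SE 0.08, 95% interval 0.27 to 0.65; adjusted p = 0.0013 by the edgeR quasi-likelihood test with Benjamini-Hochberg adjustment).

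Levels of different genes were compared in TPM, a measure that corrects for transcript length. In TKO-2i, Tead4 had the highest level at 21.6 ± 1.37 TPM and Ets2 came next at 11.7 ± 0.943 TPM (SD, n = 3). Plet1 at 7.18 ± 0.817 TPM and Tfap2a at 6.85 ± 0.633 TPM had overlapping ranges and were not separated. Gata2 followed at 2.64 ± 0.814 TPM, and its TPM in both media depends on how its reads were divided between forms of different length, which is uncertain (given with the transcripts of Gata2). The other genes were under 1 TPM in TKO-2i, namely Hand1 at 0.314 ± 0.0237 TPM, Elf5 at 0.197 ± 0.0292 TPM, Dlx3 at 0.188 ± 0.0228 TPM and Gata3 at 0.0769 ± 0.0285 TPM, and of these Elf5 and Dlx3 overlapped.

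The order in TKO-serum differed at several places. Ets2 led at 8.29 ± 0.572 TPM, before Tead4 at 6.46 ± 0.568 TPM (SD, n = 3), and their ranges did not overlap. Plet1 at 5.60 ± 0.109 TPM and Gata2 at 4.87 ± 1.03 TPM overlapped, as did Tfap2a at 1.80 ± 0.391 TPM and Hand1 at 1.48 ± 0.23 TPM. Gata3 at 0.859 ± 0.101 TPM and Dlx3 at 0.654 ± 0.0507 TPM were separate, and Elf5 was last at 0.179 ± 0.076 TPM. Gata2 was above Tfap2a in TKO-serum and below it in TKO-2i, without overlap of their TPM ranges in either medium, with the same limit on the TPM of Gata2. Gata3, last of the 9 in TKO-2i, lay above both Dlx3 and Elf5 in TKO-serum on the TPM scale.

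The deposited values are per transcript, which shows which annotated forms of each gene held the reads. Dlx3 has 1 annotated transcript, and all Gata3 reads were assigned to 1 of its 6, Gata3-201. Plet1-201 held 88.6% to 98.5% of the TPM of Plet1, and Ets2-201 held 91.7% to 98.6% of that of Ets2, over the 6 libraries. These genes were therefore represented mainly by a single form in both media.

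Tead4 was split between a pair of protein-coding forms that start at different places. Tead4-201, which starts at the upstream end of the gene, held 65.2%, 65.0% and 65.8% of the gene's TPM in TKO-2i and 72.4%, 71.2% and 68.9% in TKO-serum. Tead4-203, which starts further downstream, held 31.3%, 32.8% and 31.6% in TKO-2i and 27.6%, 28.8% and 31.1% in TKO-serum. The share of Tead4-201 was lower in every TKO-2i library than in every TKO-serum library, while its estimated reads were far more numerous in TKO-2i, at 1641.24, 1535.01 and 1595.33 against 409.74, 577.74 and 513.74. Both forms thus had more reads in TKO-2i.

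Most of the Tfap2a signal lay on Tfap2a-205, a form that GENCODE annotates as a processed transcript without a coding frame. It held 57.9%, 62.7% and 63.5% of the gene's TPM in TKO-2i and 67.1%, 79.2% and 58.2% in TKO-serum, so the groups overlapped. The coding form Tfap2a-201 held 13.8% to 24.6% in TKO-2i and 7.19% to 22% in TKO-serum. The reads of Tfap2a-201 were nonetheless more numerous in each TKO-2i library, at 81.28, 125.15 and 148.27 against 17.97, 14.69 and 35.83. The coding form Tfap2a-202 did not follow, with 130.23, 23.54 and 0 reads in TKO-2i and 13.69, 24.4 and 28.62 in TKO-serum, so that the groups overlapped. Reads on Tfap2a-206, another coding form, were 6.49, 22.37 and 39.68 in TKO-2i and 0 in each TKO-serum library. The antisense gene Gm47061 overlaps Tfap2a and had 6, 14 and 6 counts in TKO-2i and 4, 13 and 9 in TKO-serum, few beside the 503, 492 and 501 counts and the 86, 164 and 139 counts of Tfap2a.

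For Gata2, the division between forms differed between replicates of 1 medium more than between media. Gata2-202 held 43.9% to 49.6% of the TPM in TKO-2i and 44.4% to 48.4% in TKO-serum. The remainder fell mainly on Gata2-201 in TKO-2i replicate 3 and TKO-serum replicate 2, at 56.1% and 55.2%, and mainly on the short form Gata2-203 in TKO-2i replicate 1 and TKO-serum replicate 3, at 50.4% and 47.7%. Hand1 showed the same behaviour, with all 17 reads of TKO-2i replicate 3 on Hand1-203 and all reads of TKO-2i replicates 1 and 2 on Hand1-201. Such shares rest on how shared reads were divided and are uncertain.

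For Elf5, the few reads were spread over 4 of 7 annotated forms. Summed over the libraries, most of them lay on Elf5-204, a form with a retained intron, at 10.64, 10.84 and 6.73 estimated reads in TKO-2i and 7.84, 10.92 and 8.24 in TKO-serum. The coding form Elf5-201 had 1.27, 1.68 and 9.0 estimated reads in TKO-2i and 1.23, 0 and 5.52 in TKO-serum. Neither form separated the media, and at these numbers the shares rest on a few reads.

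**Figure D2:**
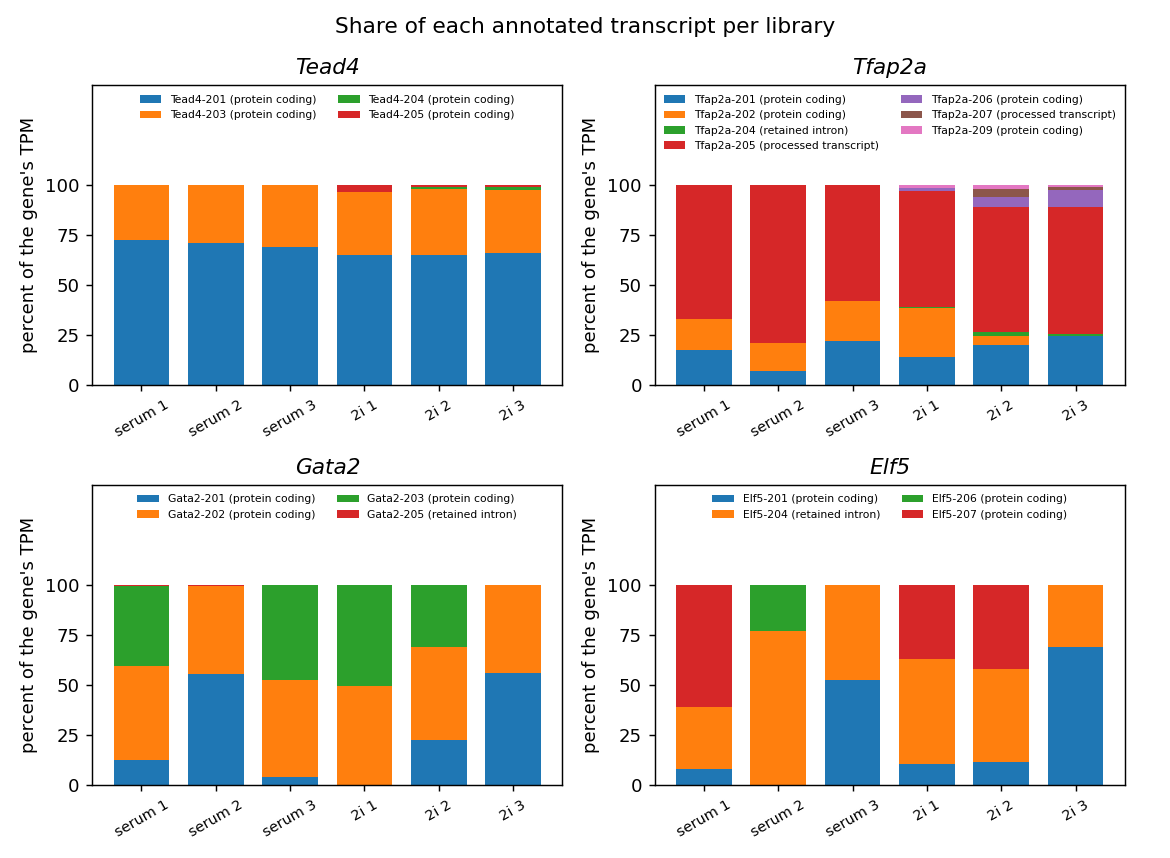
Percent of the TPM of Tead4, Tfap2a, Gata2 and Elf5 assigned to each annotated transcript in each library, as stacked bars that sum to 100 percent, with the GENCODE transcript type in the legend. Tead4-201 takes 65.0% to 72.4% in all libraries, while the shares of Gata2 and Elf5 forms change between replicates of the same medium.

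CG is the dinucleotide that the deleted enzymes methylate, so the CG content of the gene starts is described here, although methylation itself was not analysed. RefSeq windows of 300 bases (GRCm38.p6), from 250 bases before to 50 bases after an annotated start, were found for 6 of the 9 genes, with 9 windows in all, and Tead4, Hand1 and Dlx3 had none. The motif searched was CG, which reads the same on both strands. It occurs at least once in 94.6% of the 32851 windows of the table, with a median of 7 per window. Gata2 had 32 and 29 CG in its windows, and 90.5% and 87.1% of all windows hold fewer. Ets2 had 30 CG, a number that exceeds 88.3% of windows. Gata3 had 22 CG and Tfap2a had 15 and 11 in its windows, which is above 76.9%, 65.4% and 58.6% of windows. Neither Tfap2a window lies at the start of Tfap2a-205, the form with most of its reads, or of Tfap2a-201. The Tfap2a window with 11 CG is at the start of Tfap2a-208, which had no reads in any library. Plet1 had only 5 CG, with 38% of windows holding fewer. The windows of Elf5 had 3 and 10 CG, above 23.3% and 56.5% of windows. Its window with 3 CG is the one nearer to the start of Elf5-204, the form with most Elf5 reads, and its window with 10 CG is at Elf5-201. The genes that were higher in TKO-2i therefore include both a CG-rich window (Ets2) and a CG-poor one (Plet1), and those that were lower, as far as windows were found (Gata2 and Gata3), had CG-rich ones.

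The bases before the start are shown for 3 genes with intermediate, few and many CG in the window shown, namely Elf5 (its window with 10 CG), near the floor in both media, Plet1, the gene with the smallest change that passed, and Gata3, the gene with the largest fall in the edgeR fit. They are RefSeq sequence of GRCm38.p6, 250 bases each, written from 5′ to 3′ on the strand of the gene, with each CG in capitals. The Elf5 sequence precedes the RefSeq start nearest to that of Elf5-201, with its last 6 bases inside that transcript as GENCODE annotates it, and lies at chr2:103423818-103424067 (plus strand, 8 CG), that of Plet1 lies at chr9:50494275-50494524 (plus strand, 3 CG), and that of Gata3 lies at chr2:9878601-9878850 (minus strand, 19 CG).
Elf5: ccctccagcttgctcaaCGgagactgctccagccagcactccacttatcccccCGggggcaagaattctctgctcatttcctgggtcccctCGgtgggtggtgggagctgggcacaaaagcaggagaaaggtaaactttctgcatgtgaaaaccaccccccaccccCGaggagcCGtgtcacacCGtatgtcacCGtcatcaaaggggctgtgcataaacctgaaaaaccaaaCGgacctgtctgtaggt
Plet1: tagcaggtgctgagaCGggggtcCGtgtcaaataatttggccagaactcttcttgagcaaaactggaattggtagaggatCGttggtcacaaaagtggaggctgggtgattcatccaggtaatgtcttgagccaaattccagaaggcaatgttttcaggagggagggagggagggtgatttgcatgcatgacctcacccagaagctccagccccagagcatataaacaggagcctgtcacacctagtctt
Gata3: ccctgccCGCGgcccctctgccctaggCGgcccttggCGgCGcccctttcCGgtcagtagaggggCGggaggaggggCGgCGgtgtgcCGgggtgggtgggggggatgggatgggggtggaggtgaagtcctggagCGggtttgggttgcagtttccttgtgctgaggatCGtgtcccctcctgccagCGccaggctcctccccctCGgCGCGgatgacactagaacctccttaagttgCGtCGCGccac
In the Plet1 sequence the CG are few and lie toward its upstream end, whereas those of Gata3 occur from near its first bases to near its last. These letters describe the DNA and say nothing of whether a factor binds there.

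The genes whose pattern over the 6 libraries was most like that of each member were found by the root mean square difference of log2 CPM, each gene centred on its own mean, among 15003 protein-coding candidates. Gata3, Dlx3 and Elf5 were left out because their mean was under 1 CPM. For Tead4 the nearest were Nefm, at a difference of 0.03, and Dusp14, at 0.039. For Tfap2a they were Tcp11x2 at 0.069 and Oas1d at 0.105, both further away. For Plet1 they were Slc1a4 at 0.016 and Slain2 at 0.024, and for Ets2 they were Fam210b at 0.023 and Stac2 at 0.024. For Gata2 they were Trappc13 at 0.042 and 4931406C07Rik at 0.045. Hand1 had the loosest first neighbour, Fam89a at 0.092, before Cxxc4 at 0.1. With 6 libraries in 2 groups, such likeness mostly reflects a similar size of difference between the media.

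Of 8 genes that mark the stem state of trophoblast, all tested, 4 were higher in TKO-2i, 3 were lower and Klf5 did not pass. Their median log2 fold change was 0.17. Of all tested genes, 31.9% were higher and 30.6% lower in TKO-2i, and this list was not tested as a whole. Cdx2, a homeobox gene downstream of TEAD4 that is also expressed in the caudal embryo and streak, was at 6.45, 3.80 and 7.25 CPM in TKO-2i against 0.389, 0.357 and 0.152 CPM in TKO-serum, with a log2 fold change of 4.28 (SE 0.35; adjusted p = 1.3e-05 by the edgeR quasi-likelihood test with Benjamini-Hochberg adjustment). Eomes, a T-box gene of trophoblast stem cells and of the primitive streak, was at 14.2, 14.0 and 13.6 CPM in TKO-2i against 1.87, 2.05 and 2.02 CPM in TKO-serum, which is 2.81 higher on the log2 scale (SE 0.08). Tfap2c and Esrrb rose by 0.51 and 0.33 on the log2 scale. The paper counts Esrrb among the pluripotency genes, and Esrrb made up most of the summed level of this list. In TKO-2i its mean was 844 of a summed 1030 CPM, whereas for TKO-serum it was 669 of 873 CPM. Whether the rise of Esrrb or Tfap2c has to do with trophoblast was not tested. In the other direction, the FGF receptor gene Fgfr2 fell by 4.67 on the log2 scale, from 11.7, 11.9 and 11 CPM in TKO-serum to 0.491, 0.50 and 0.352 CPM in TKO-2i, and Id2 and Sox21 fell by 4.53 and 1.95.

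Genes of differentiated trophoblast and placenta were mostly lower or too low to test. Of the 21 genes of this list, 15 were tested. Of these, 1 was higher in TKO-2i, 10 were lower and 4 did not pass, beside 31.9% higher and 30.6% lower of all tested genes. The median log2 fold change of the 15 was -1.64. Without TKO-2i replicate 3, Rhox4b passed as higher too, which made 2 (adjusted p = 0.022 by the edgeR quasi-likelihood test with Benjamini-Hochberg adjustment). Peg10, an imprinted gene of the placenta, was at 29.8, 35.1 and 32.1 CPM in TKO-2i against 509, 544 and 516 CPM in TKO-serum, with a log2 fold change of -4.02 (SE 0.08). Ascl2, the factor of spongiotrophoblast precursors, was at 0.781, 0.455 and 0.868 CPM against 8.22, 6.97 and 6.68 CPM. The keratin genes did not move together, since Krt8 rose by 1.78 on the log2 scale while Krt18, its usual partner, had a log2 fold change of -0.97. Gcm1, the labyrinth factor, had 2, 7 and 1 counts in TKO-2i and 11, 13 and 15 in TKO-serum, and it lost its call without TKO-2i replicate 3 (adjusted p = 0.05) or TKO-serum replicate 3 (adjusted p = 0.056) in the edgeR quasi-likelihood test with Benjamini-Hochberg adjustment. Among the genes too low to test, Prl3b1 and Prl2c2 had no count in any library, and Prl3d1 had a single count over all 6 libraries.

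**Figure D3:**
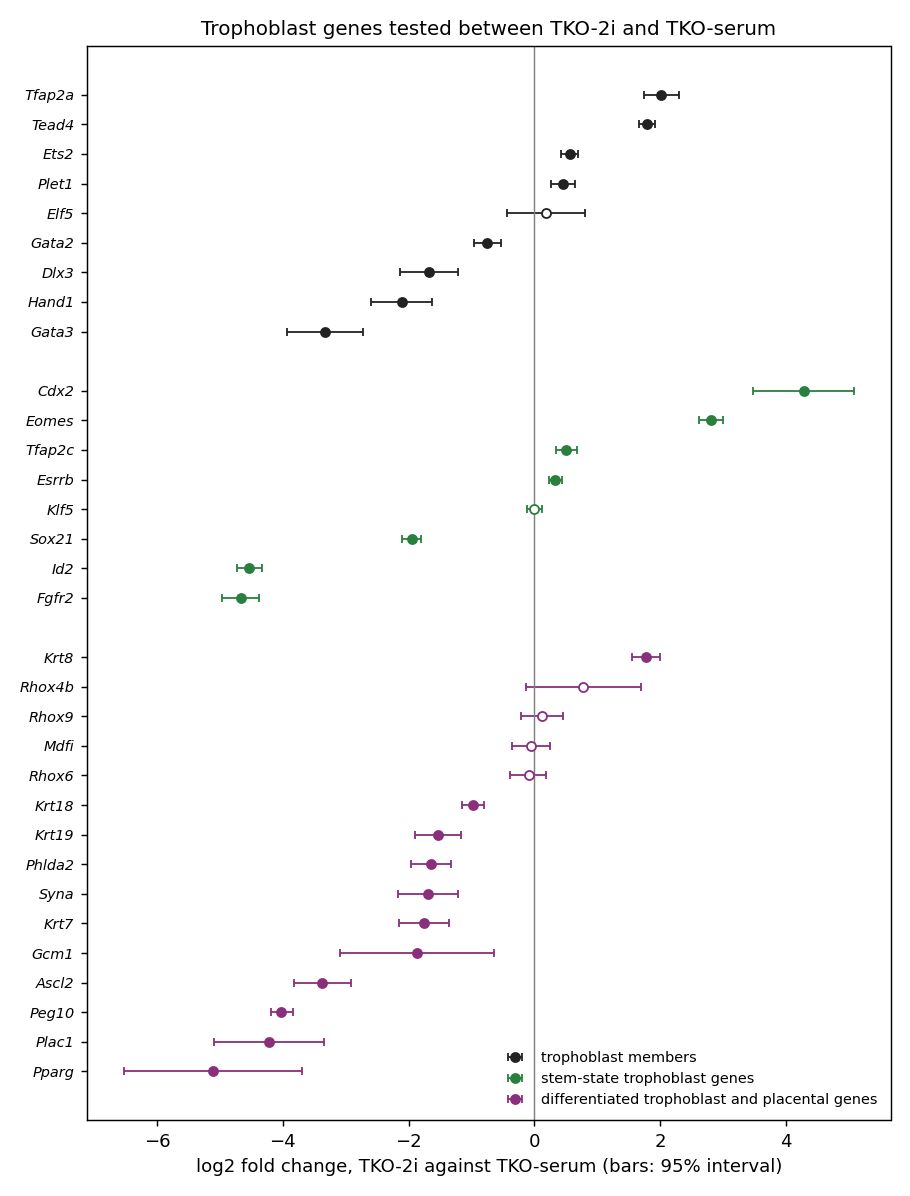
Log2 fold change of TKO-2i against TKO-serum for the 9 trophoblast genes (trophoblast members) and for the tested genes of the stem-state and the differentiated lists, where points are estimates of edgeR's fit, bars are 95% intervals and open points have an adjusted p of 0.05 or more. The 9 genes range from -3.33 (Gata3) to 2.02 (Tfap2a).

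TEAD4 works within the Hippo pathway, in which the kinases encoded by Stk3, Stk4, Lats1 and Lats2 keep the coactivators encoded by Yap1 and Wwtr1 out of the nucleus. Of 17 genes of the pathway and the TEAD family, all tested, 8 were higher in TKO-2i, 6 were lower and 3 did not pass. Their median log2 fold change was 0.19, and of all tested genes 31.9% were higher and 30.6% lower. Among the TEAD genes, Tead2 was higher by 0.93 on the log2 scale and Tead3 was lower, with a log2 fold change of -0.43. Tead1 was higher by 0.51 in the edgeR fit and lost its call in both limma fits of log2 TPM, at 0.33 and 0.34 (Benjamini-Hochberg adjusted p = 0.14 in each). Wwtr1 rose by 0.96, and Amot, which holds YAP1 at cell junctions, fell by 2.56. Of the kinase genes, Stk3 was higher by 0.98 on the log2 scale, and Lats1 and Lats2 did not pass. Yap1 and Stk4 had small log2 fold changes of -0.16 and -0.17, and each lost its call in 5 of the 6 fits that left out 1 library, all but the one without TKO-2i replicate 2, with adjusted p of 0.058 to 0.14 and 0.064 to 0.095 in the edgeR quasi-likelihood test with Benjamini-Hochberg adjustment. Stk4 also lost it in both limma fits. Nf2 lost its call in those fits too, Amotl1 did so on log2(TPM + 1), and Lats1 passed as higher without TKO-2i replicate 1 (adjusted p = 0.026 in the same edgeR test).

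The members' relatives by sequence family had calls in both directions, as did all tested genes (31.9% higher and 30.6% lower in TKO-2i). Of 19 such genes, 13 were tested, 5 were higher in TKO-2i, 5 were lower and 3 did not pass, with a median log2 fold change of -0.17. Beside Hand1, Hand2 had 33, 35 and 32 counts in TKO-2i and 5, 5 and 7 in TKO-serum, the opposite direction, with a log2 fold change of 2.59 (SE 0.27). Beside Elf5, Elf2, Elf3 and Elf4 rose by 0.70, 0.75 and 1.94, while Elf1 at -0.04 and Ehf at -0.20 did not pass. Beside Ets2, Ets1 fell by 2.37. Tfap2e, the only tested relative of Tfap2a in this list, had a log2 fold change of -1.54, opposite in sign to Tfap2a. Beside Dlx3, Dlx1 rose by 2.67 and Dlx4 had a log2 fold change of -1.24. Beside Gata2 and Gata3, Gata1 and Gata6 had log2 fold changes of -1.42 and -1.75, while Gata4 at -0.17 did not pass and passed as lower with counts from length-scaled TPM (-0.54) and in the limma fits of log2(TPM + 1) and log2(TPM + 0.1) (-0.46 and -0.59). Dlx6 and Dlx2 were not tested, and Dlx6 passed as higher without TKO-2i replicate 3 and Dlx2 as lower with no filter on low counts (adjusted p of 0.036 and 0.023 in the edgeR quasi-likelihood test with Benjamini-Hochberg adjustment).

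Several of the 9 genes are also expressed outside trophoblast, and markers of other cell types moved between the media. The background for every count of cell type markers is that 31.9% of all tested genes were higher in TKO-2i and 30.6% lower. Of 8 extraembryonic endoderm markers, 7 were tested and 6 were lower in TKO-2i, with summed levels of 9.86, 10.2 and 9.14 CPM in TKO-2i against 31.3, 32.7 and 34.3 CPM in TKO-serum, with Dab2 the most abundant in TKO-serum (mean 14 CPM) and Gata4 in TKO-2i (mean 5.92 CPM), and no marker at 0 in all libraries. Afp, not tested, passed as lower with no filter on low counts (adjusted p = 0.012 in the same edgeR test as for the other genes). Of the markers called, Sox17 lost its call with counts from length-scaled TPM and without TKO-serum replicate 2 (adjusted p of 0.059 and 0.056 in the edgeR quasi-likelihood test with Benjamini-Hochberg adjustment). Gata4 and Gata6 are in this list and among the relatives above. All 4 neural markers were lower in TKO-2i, at a sum of 143, 117 and 137 CPM against 214, 196 and 204 CPM, most of it Tubb3. All 4 markers of the 2-cell-like state were lower as well, at a sum of 3.03, 2.52 and 2.37 CPM against 29.1, 30.4 and 33.2 CPM, with Tmem92 the most abundant and Zfp352 at 0, 0 and 1 counts in TKO-2i. These lists moved in the direction of Gata3, Hand1, Dlx3 and Gata2, and their part in those values was not tested.

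Markers of primitive streak and mesoderm summed to 17.8, 15.1 and 23.7 CPM in TKO-2i against 5.26, 5.45 and 5.48 CPM in TKO-serum, a difference carried by T, at means of 13.7 and 0.287 CPM. Of the 6 markers, 4 were tested, of which T, the most abundant in TKO-2i, was higher there and Tbx6 was lower, and Kdr, the most abundant in TKO-serum, had a log2 fold change of -0.01. The list as a whole thus had no common direction. Tead4, Tfap2a, Ets2, Plet1, Cdx2 and Eomes were higher in TKO-2i too, as were 31.9% of all tested genes. The part of T in their values was not tested. Tbx6 lost its call with DESeq2 (Benjamini-Hochberg adjusted p = 0.095) and in 4 of the edgeR fits that left out 1 library, those without TKO-2i replicate 2 or 3 or TKO-serum replicate 1 or 3, with adjusted p of 0.057 to 0.085 in the edgeR quasi-likelihood test with Benjamini-Hochberg adjustment. Mixl1 passed as higher without TKO-serum replicate 2 and with protein-coding genes only (adjusted p of 0.038 and 0.047 in the same edgeR test).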

How the data were processed

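RNA-seq of 3 TKO-2i and 3 TKO-serum libraries was analysed, grouped by the submitters' labels. The deposited files give TPM and estimated counts per transcript and library, where reads shared by transcripts are divided between them. The quantifier and its use of strand are not given in the sources used here, and the submitters' processing notes name build mm10. Here 136176 of 136288 transcripts (99.92%) were matched to GENCODE M21 (GRCm38), and unmatched ones held 0.0354% to 0.0459% of a library's counts. Estimated counts were summed per gene and rounded, and TPM was summed per gene. Genes were filtered with filterByExpr, scaled by TMM (factors 0.9705 to 1.0267), and tested with edgeR 4.0.16 (R 4.3.3) by glmQLFit and glmQLFTest with the medium as the only factor. Benjamini-Hochberg adjustment ran over all 18190 tested genes. CPM used the TMM-scaled sizes. The SE of a log2 fold change is its absolute value over the square root of F. The fit was tested on simulated data. Tables and plots were made with Python 3.11.15.

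Alternatives were no filter, DESeq2 1.42.0, its size factors in edgeR, at least 10 counts in every library, limma 3.58.1 with log2(TPM + 1) or log2(TPM + 0.1), length-scaled TPM as counts, protein-coding genes only, a replicate block, and each library left out. Named genes are the 9 members, the genes of the lists (stem-state trophoblast, differentiated trophoblast and placenta, Hippo and TEAD, family relatives, cell type markers and knocked-out genes), and for each member with a mean of at least 1 CPM the 2 protein-coding genes nearest in pattern. The members and lists were chosen with earlier results of these data known. Which sequencing pool held each library is not given in the sources used here, so pools were not compared. PCR copies were not marked, so floors reflect counting error alone.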

Additional observations from a re-analysis of the deposited data

How the results depend on the processing

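Over the 15 alternatives, Tead4, Tfap2a, Ets2 and Plet1 kept their rise and Gata2, Gata3, Hand1 and Dlx3 their fall, all past the threshold, except that Gata3 was not tested with at least 10 counts in every library. Elf5 passed in none (log2 fold change 0.02 to 0.33). Plet1 came closest to the threshold, with an adjusted p of up to 0.032. The genes called numbered between 9808 (at least 10 counts in every library) and 12579 (without TKO-2i replicate 2), against 11368. With the replicate number as a replicate block, 12553 genes were called, and 4 members were higher and 4 lower. Pou5f1 (lower) and Lats1 (higher) also passed with the block, at adjusted p of 0.007 and 0.023, and no other listed gene changed its call. Whether the numbers pair the samples is not settled by these data. The deviations of same-numbered libraries correlated at 0.242, 0.329 and 0.014. TKO-2i replicate 3 correlated best with TKO-serum replicate 1, while the other 5 libraries did so with their own number.

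Of the genes of differentiated trophoblast, 1 to 2 were higher when 1 library was left out, the additional one being Rhox4b without TKO-2i replicate 3. With limma on log2(TPM + 1), 5 Hippo and TEAD genes were higher in place of 8. With at least 10 counts in every library, 3 family relatives were higher in place of 5, because fewer genes were tested. Depth limits Elf5, at 13 to 16 counts per library, and Gata3 in TKO-2i, at 5 to 10.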

Other observations

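Surface ectoderm markers, of which 3 of 5 were tested, summed to 2.65, 2.11 and 2.23 CPM in TKO-2i against 1.97, 2.33 and 2.07 CPM in TKO-serum, with Krt14 lower and Msx1, the most abundant, higher. Msx1 lost its call with DESeq2, in both limma fits and without TKO-2i replicate 1, TKO-serum replicate 1 or TKO-serum replicate 3 (Benjamini-Hochberg adjusted p of 0.05 to 0.089 over these DESeq2, limma and edgeR fits). Fibroblast markers, of which 4 of 8 were tested, 1 was higher and 2 were lower, summed to 19.9, 16.9 and 15.8 CPM in TKO-2i against 14.7, 13.6 and 13.2 CPM in TKO-serum, with Pdgfrb the most abundant in TKO-2i (mean 9.38 CPM) and Thy1 in TKO-serum (mean 5.68 CPM), and Col3a1, Lum and Postn at no more than 5 counts in any library. The fibroblast marker Dcn, untested with all libraries, passed as lower without the filter on low counts and in 4 of the fits that left out 1 library, those without TKO-2i replicate 1, 2 or 3 or TKO-serum replicate 3 (adjusted p of 0.0002 to 0.0043 in the edgeR quasi-likelihood test with Benjamini-Hochberg adjustment).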
